A study of Mus musculus with 6 samples.

Results

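The endothelial transcripts described here are those of 8 genes that mark the cells lining blood vessels, namely Kdr, Flt1, Pecam1, Cdh5, Tie1, Tek, Eng and Egfl7. They were chosen by name, with earlier results of these data known, and each matched 1 of the 39177 rows of the count files. RNA of crude heart mitochondria was sequenced from 3 Polrmt knockout mice and 3 control mice. The knockouts carried loxP-flanked Polrmt alleles (L/L) and cre driven by the muscle creatine kinase promoter, which removes exon 3 of the gene; the labels also give them as Polrmt -/-. The controls carried the loxP-flanked alleles without cre (L/L), and the labels also give them as Polrmt +/+. All mice were C57BL/6N and aged 3 to 4 weeks, and each library is taken as 1 mouse. Polrmt encodes the RNA polymerase of mitochondria, and the muscle creatine kinase promoter is active in heart and skeletal muscle cells, so that endothelial cells are not the cells meant to lose the gene.

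Endothelial cells sense vascular growth factors through receptor tyrosine kinases. Kdr (VEGF receptor 2) carries most of the growth signal of VEGF-A, and Flt1 (VEGF receptor 1) binds the same ligand tightly and, in a soluble form, withholds it. Tek (Tie2) is the receptor of the angiopoietins, and Tie1 is its relative without a well-established ligand of its own. Cdh5 (VE-cadherin) and Pecam1 (CD31) hold neighbouring cells together, Eng (endoglin) is a co-receptor for BMP9 and BMP10, and Egfl7 is a secreted matrix protein whose gene hosts the endothelial microRNA miR-126. The heart is rich in capillaries, and these transcripts entered the libraries with the nuclear-encoded RNA that stayed with the crude mitochondria. In such bulk RNA, fewer endothelial cells, less of each RNA per endothelial cell and less carry-over with the mitochondria cannot be told apart.

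ETS transcription factors take part in endothelial gene expression and bind DNA at the core GGAA. The 250 bases before the RefSeq start (GRCm38.p6) are shown for the 2 receptor pairs that the results compare, 5′ to 3′ on the gene's strand, with each GGAA, or TTCC on the other strand, in capitals. They lie at chr5:75978456-75978705 (minus strand) for Kdr, chr5:147726012-147726261 (minus) for Flt1, chr4:118489850-118490099 (minus) for Tie1 and chr4:94739039-94739288 (plus) for Tek.
Kdr: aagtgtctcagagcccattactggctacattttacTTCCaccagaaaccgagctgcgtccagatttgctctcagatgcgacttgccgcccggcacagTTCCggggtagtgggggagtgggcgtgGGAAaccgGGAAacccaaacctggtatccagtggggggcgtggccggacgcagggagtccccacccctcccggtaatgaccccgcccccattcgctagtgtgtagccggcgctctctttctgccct
Flt1: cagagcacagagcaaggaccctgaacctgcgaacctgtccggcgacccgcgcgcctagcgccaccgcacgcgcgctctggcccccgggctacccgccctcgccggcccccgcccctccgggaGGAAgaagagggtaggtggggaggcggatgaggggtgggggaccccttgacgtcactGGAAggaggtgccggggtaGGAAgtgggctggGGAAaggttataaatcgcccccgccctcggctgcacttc
Tie1: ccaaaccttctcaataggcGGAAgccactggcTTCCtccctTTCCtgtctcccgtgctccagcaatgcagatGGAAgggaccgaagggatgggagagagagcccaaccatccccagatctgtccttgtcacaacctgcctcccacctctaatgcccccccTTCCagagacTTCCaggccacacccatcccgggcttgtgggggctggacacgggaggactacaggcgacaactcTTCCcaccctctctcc
Tek: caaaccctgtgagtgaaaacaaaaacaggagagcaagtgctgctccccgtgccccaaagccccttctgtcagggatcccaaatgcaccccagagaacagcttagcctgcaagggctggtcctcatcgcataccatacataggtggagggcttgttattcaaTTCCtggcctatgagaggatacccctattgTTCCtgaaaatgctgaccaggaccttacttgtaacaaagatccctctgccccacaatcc
The window of Tie1 held 7 matches, those of Kdr and Flt1 4 each, and that of Tek 2. Of all 32851 promoter windows of this length, 93.4% held at least 1 match and the median was 3; a match is a description of the letters, not a binding site. The longer form CCGGAA was matched 1 time in these 4 windows, on the other strand of Kdr where it overlaps a GGAA, and in 12.0% of all windows. RefSeq windows were matched for 6 of the 8 genes.

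The Egfl7 gene (chromosome 2, 26580014 to 26593120, GRCm38) contains the miR-126 hairpin, shown because this microRNA is the regulatory RNA that the Egfl7 gene is known for. The hairpin lies at chr2:26591357-26591429 on the plus strand, with the mature 3p arm in capitals in the first line and the seed (bases 2 to 8) in capitals in the second.
microRNA 126a: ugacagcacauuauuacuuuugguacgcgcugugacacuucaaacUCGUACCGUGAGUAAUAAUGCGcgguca
mmu-miR-126a-3p: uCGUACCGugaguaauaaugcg
The row of Mir126a held 0 counts in all 6 libraries, so the microRNA is given by its sequence alone. All 73 bases of the hairpin lie in annotated exon of Egfl7 on the same strand, so this 0 does not show that its RNA was absent.

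Gene-assigned counts were between 1062030 and 1227997 in knockouts and between 2867067 and 3234729 in controls, of which mtDNA transcripts made up 21.1% to 25.8% in knockouts and 79.5% to 83.5% in controls. Values were therefore scaled on nuclear counts, which were between 838015 and 910826 in knockouts and between 499334 and 586461 in controls. Most of these counts fell on loci that collect ribosomal RNA reads. Without those loci, between 126339 and 164004 nuclear counts remained in knockouts and between 76949 and 109351 in controls. CPM here stands for the count relative to the nuclear total of its library after TMM scaling. The 8 genes together had 200, 281 and 275 counts in knockouts and 176, 245 and 213 in controls, so that each gene rests on few reads. Polrmt itself had 2, 5 and 1 counts in knockouts and 3, 2 and 1 in controls, and a gene-level count does not resolve the removed exon. Cardiomyocyte markers summed to between 24686 and 26083 CPM in knockouts and between 25980 and 31459 CPM in controls, and all 8 endothelial genes had counts in every library.

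No endothelial transcript passed the test for a difference between knockout and control libraries of crude heart mitochondria. By edgeR's quasi-likelihood test with Benjamini-Hochberg adjustment over 2369 tested genes, 0 of 7 tested members were lower and 0 higher, where 7.81% of all tested genes were called lower and 8.57% higher. At an unadjusted p under 0.05, 2 of the 7 were lower, against 14.5% of all tested genes, and DESeq2 called 0 of the 7 (3.00% of all genes were lower and 4.01% higher by that test). The eighth gene, Egfl7, did not pass the low-count filter. The fitted change lay below 0 in all 7 tested members, as it did in 51.0% of tested genes, and their median log2 fold change was -0.32, against -0.02 over all tested genes. Summed over the 8 genes, the level was 272, 335 and 284 CPM in knockouts and 387, 392 and 339 CPM in controls. The highest knockout thus came close to the lowest control, and the sums did not overlap on this scale. Of single tested genes, 16.5% had all knockouts below all controls. The separation of the sums depended on the scaling. Relative to all nuclear counts without TMM, knockouts reached 328 CPM and controls began at 352 CPM. With the loci that collect ribosomal RNA reads also left out, knockouts had 1583, 1954 and 1677 CPM. Controls then had 2287, 2275 and 1948 CPM, so that knockout 2 lay above control 3. In the authors' deposited table, 0 of the 8 genes had a false discovery rate under 0.05, where 2.23% of its 6319 genes were lower and 3.09% higher; its smallest rate among the 8 was 0.184, for Kdr.

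**Figure D1:**
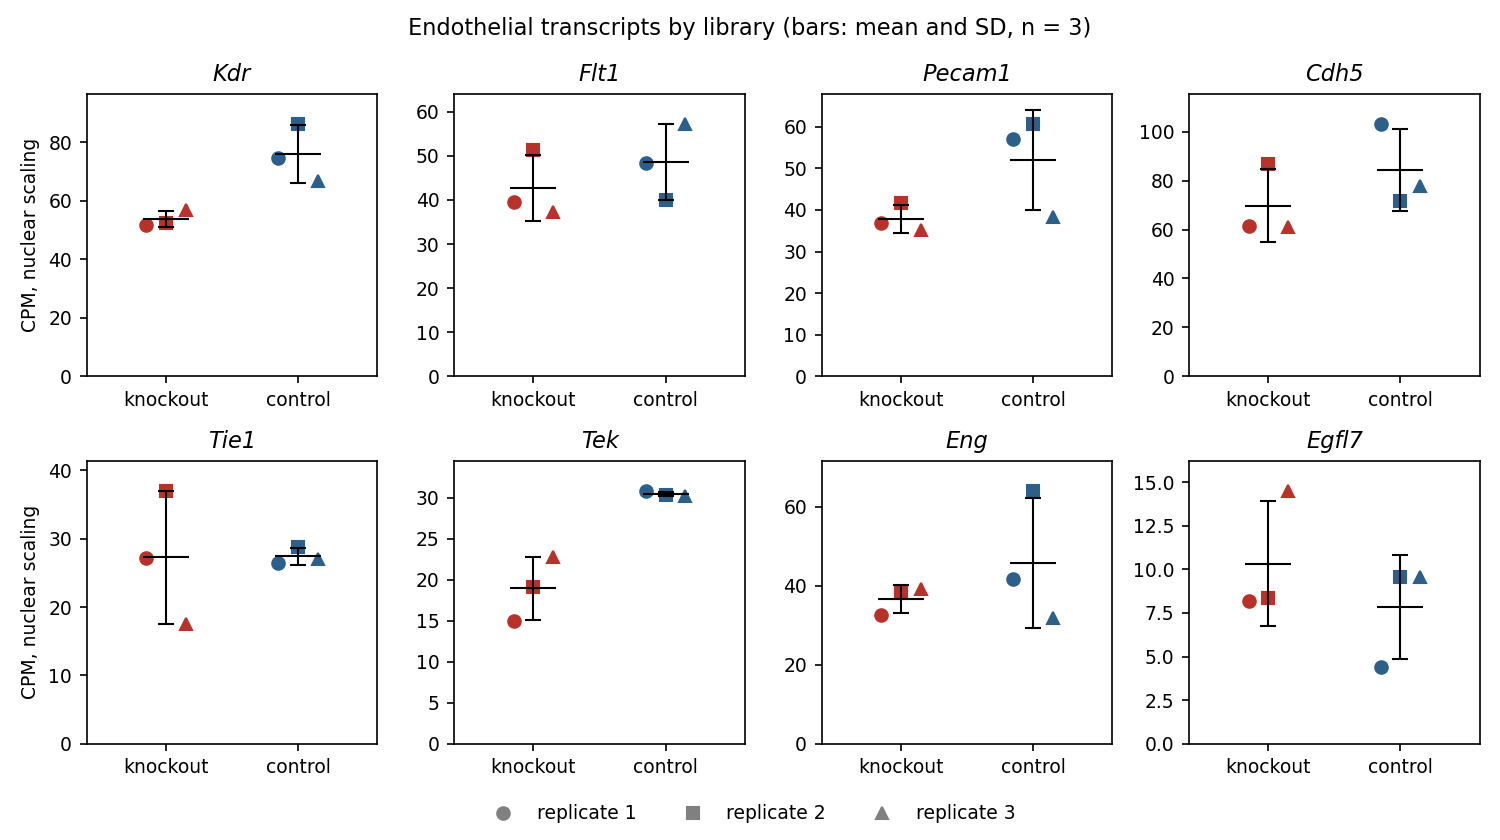
Level of each endothelial transcript in every library, in CPM scaled on nuclear counts, with knockout (red) left of control (blue), a marker shape per replicate and the mean with its SD (n = 3 each). Kdr and Tek are the genes whose groups do not overlap; for Kdr the knockouts sit between 51.8 and 56.9 CPM and the controls between 66.8 and 86.3 CPM.

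Among the VEGF receptors, Kdr (ENSMUSG00000062960, chromosome 5, 75932827 to 75978458) had 51.8, 52.4 and 56.9 CPM in knockouts and 74.8, 86.3 and 66.8 CPM in controls, from 38, 44 and 55 counts and from 34, 54 and 42 counts. All 3 knockouts lay below all 3 controls. Groups without overlap were found in 2 of the 8 members, Kdr and Tek, and in 33.3% of all tested genes (16.5% with the knockouts lower). The log2 fold change of Kdr was -0.50 ± 0.19 SE (95% interval -0.88 to -0.11), or 1.41-fold lower, and it did not pass (edgeR adjusted p = 0.0649). With the total library sizes, mtDNA included, and TMM over all 3363 genes then tested, the log2 fold change was -0.57 and Kdr was called lower (edgeR adjusted p = 0.0369; 6.78% of genes were lower and 6.66% higher in that fit). The other alternatives and each left-out library gave adjusted p-values between 0.0546 and 0.373.

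Flt1 (ENSMUSG00000029648, chromosome 5, 147561604 to 147726011) had 39.5, 51.2 and 37.2 CPM in knockouts and 48.4, 39.96 and 57.3 CPM in controls. The groups overlapped, and the second library of each stood out in the opposite direction, as the highest knockout and the lowest control. Its log2 fold change was -0.19 ± 0.23 SE (95% interval -0.64 to 0.26), so that a level as much as 1.56-fold lower or 1.20-fold higher in knockouts lies within its interval. It went to -0.33 without knockout 2, to -0.33 without control 2, to -0.07 without knockout 3 and to -0.03 without control 3, none of which passed. The log2 ratio of Flt1 to Kdr counts, which needs no scaling, was -0.34 ± 0.29 in knockouts and -0.64 ± 0.44 in controls (SD, n = 3 each). That difference of 0.30 was smaller than the spread in controls (two-sided exact permutation p = 0.4, adjusted over 2 ratios 0.4, the smallest possible being 0.1).

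Of the angiopoietin receptors, Tek (ENSMUSG00000006386, chromosome 4, 94739289 to 94874976) had the lowest fitted change of the 7 members. It had 14.99, 19.1 and 22.8 CPM in knockouts and 30.8, 30.4 and 30.2 CPM in controls, from 11, 16 and 22 counts and from 14, 19 and 19 counts. No knockout reached any control, where 16.5% of all tested genes had the knockouts below all controls. The highest control was 1.02-fold above the lowest. At 14, 19 and 19 counts, that range is narrower than counting error alone would usually leave, so it does not measure the precision of the level. The log2 fold change was -0.66 ± 0.30 SE (95% interval -1.25 to -0.06), or 1.58-fold lower, and it did not pass (edgeR adjusted p = 0.121; between 0.0994 and 0.497 over the alternatives).

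Tie1 (ENSMUSG00000033191, chromosome 4, 118471191 to 118490061), the partner receptor, had 27.2, 36.9 and 17.6 CPM in knockouts and 26.4, 28.8 and 27.1 CPM in controls. The knockouts fell on both sides of the controls and differed 2.10-fold among themselves. The log2 fold change was -0.03 ± 0.30 SE (95% interval -0.62 to 0.56), and it was 0.26 without knockout 3 and -0.31 without knockout 2. The log2 ratio of Tek to Tie1 counts was -0.47 ± 0.72 in knockouts and 0.15 ± 0.07 in controls (SD, n = 3 each), and their difference of -0.62 did not exceed the SD of the knockouts (two-sided exact permutation p = 0.4, adjusted 0.4). Knockouts 1 and 2 had ratios of -0.83 and -0.93, below all controls, and knockout 3 one of 0.36, above them. The small SD of the controls rests on 52 counts of Tek and 47 of Tie1 and does not measure counting error.

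The junction genes overlapped between the groups. Cdh5 (ENSMUSG00000031871, chromosome 8, 104101625 to 104144511), the adhesion molecule of endothelial adherens junctions, had 61.3, 87.0 and 61.0 CPM in knockouts and 103, 71.9 and 78.0 CPM in controls. Knockouts 1 and 3 lay below all controls, and knockout 2 lay among them. Its log2 fold change was -0.25 ± 0.19 SE (95% interval -0.62 to 0.12), and it went to -0.10 without control 1 and to -0.43 without knockout 2. With 318 counts over the libraries (177 in knockouts and 141 in controls), Cdh5 was the most deeply counted member and had the narrowest interval of the 7.

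Pecam1 (ENSMUSG00000020717, chromosome 11, 106654217 to 106750628) had 36.8, 41.7 and 35.2 CPM in knockouts and 57.2, 60.7 and 38.2 CPM in controls. The knockouts were close together, and control 3 lay among them. The log2 fold change was -0.45 ± 0.23 SE (95% interval -0.90 to 0.01), 1.36-fold lower (edgeR adjusted p = 0.183), and it went to -0.30 without control 2 and to -0.64 without control 3. Pecam1 is also found on leukocytes and platelets. The 15 leukocyte markers summed to between 54.5 and 92.1 CPM in knockouts and between 157 and 229 CPM in controls, all 3 of those tested were lower by edgeR (Csf1r, Mrc1 and Lyz2) and 1 of the 3 by DESeq2, where these tests called 7.81% and 3.00% of all tested genes lower, and Cd3e, Cd79a and S100a8 were at 0 in every library. The 12 red cell and platelet markers overlapped between the groups, with sums between 162 and 298 CPM in knockouts and between 153 and 333 CPM in controls, and 0 of 4 tested were called. The platelet gene Pf4, named after its values were seen, had 0 counts in every knockout and 4, 2 and 1 in controls, too few for a comparison. The part of either cell type in the values of Pecam1 was not tested.

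Eng (ENSMUSG00000026814, chromosome 2, 32646595 to 32682669) had 32.7, 38.1 and 39.3 CPM in knockouts and 41.8, 63.9 and 31.8 CPM in controls. All knockouts lay within the range of the controls, among which control 2 was 2.01-fold above control 3. The log2 fold change was -0.32 ± 0.24 SE (95% interval -0.80 to 0.16), and it was 0.03 without control 2 and -0.54 without control 3, so that single control libraries decide its direction and size. Eng shares 61 exon bases with Fpgs on the other strand, a gene with at most 3 counts in any library.

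Egfl7 had 6, 7 and 14 counts in knockouts and 2, 6 and 6 in controls, or 8.17, 8.34 and 14.5 CPM and 4.40, 9.59 and 9.55 CPM. It was the one member with a mean above that of controls, at 10.3 ± 3.59 CPM in knockouts and 7.85 ± 2.99 CPM in controls (SD, n = 3 each). The groups overlapped, and the knockout-to-control ratio of summed counts, relative to library size, was 1.297 (95% Poisson interval 0.657 to 2.68). No difference in Egfl7 was detected, and ratios within that interval, which covers counting error only, cannot be told apart at this depth. Egfl7 shares 264 exon bases with Gm20532 on the same strand, which had 0 counts, and 73 with the miR-126 hairpin, also on the same strand. It shares 64 with Agpat2 on the other strand, which had at most 4 counts in any library. Without knowledge of strand, reads in the bases shared with Agpat2 cannot be assigned. Strand would not separate those shared with Gm20532 or the hairpin.

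**Figure D2:**
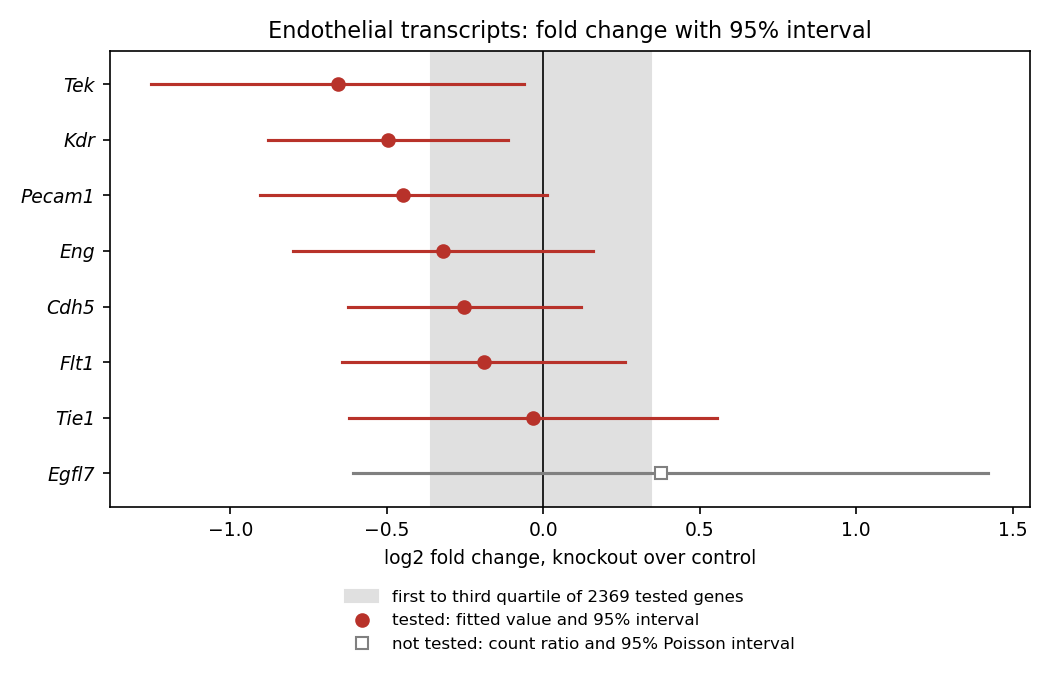
Log2 fold change, knockout over control, of the 7 tested members with 95% intervals (red) and the count ratio of Egfl7 with its Poisson interval (open square); the grey band spans the quartiles of all 2369 tested genes, from -0.36 to 0.34. Fitted values run from -0.66 for Tek to -0.03 for Tie1, and the intervals of Tek and Kdr end below 0.

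Relative to all tested genes, 11.5% had a fitted change at or below that of Tek, 17.2% at or below that of Kdr and 48.2% at or below that of Tie1. The 95% interval of Tek reaches a level 2.38-fold lower in knockouts, and those of the other 6 tested members end between 1.54-fold and 1.87-fold lower. Larger falls of single genes therefore lie outside these intervals, which rest on the spread shared across genes in the fit.

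Levels of different genes were compared per kilobase of the union of annotated exons, on the CPM scale. Cdh5 had the highest level, at 16.6 ± 3.55 in knockouts and 20.1 ± 3.97 in controls (SD, n = 3 each), and did not overlap with the next gene in either group. Eng followed at 9.07 ± 0.871 in knockouts, without overlap with the next gene, and at 11.3 ± 4.06 in controls, where it overlapped with Kdr. Kdr (5.95 ± 0.308 in knockouts and 8.41 ± 1.08 in controls) and Pecam1 (6.08 ± 0.547 in knockouts and 8.36 ± 1.95 in controls) overlapped in both groups and changed places between them. In controls Tek, at 6.47 ± 0.0607, lay above Tie1, at 5.57 ± 0.2503, without overlap. These control values rest on 52 counts of Tek and 47 of Tie1, and their order was not tested against counting error. In knockouts Tek was at 4.02 ± 0.825 and Tie1 at 5.54 ± 1.97, and they overlapped. Flt1 (3.16 ± 0.557 in knockouts and 3.59 ± 0.642 in controls) and Egfl7 (2.89 ± 1.004 in knockouts and 2.19 ± 0.834 in controls) were lowest, and they did not overlap in controls. The union of exons counts sequence that a given isoform may lack, which lowers the value of genes with many isoforms, and whose share was not measured here.

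**Figure D3:**
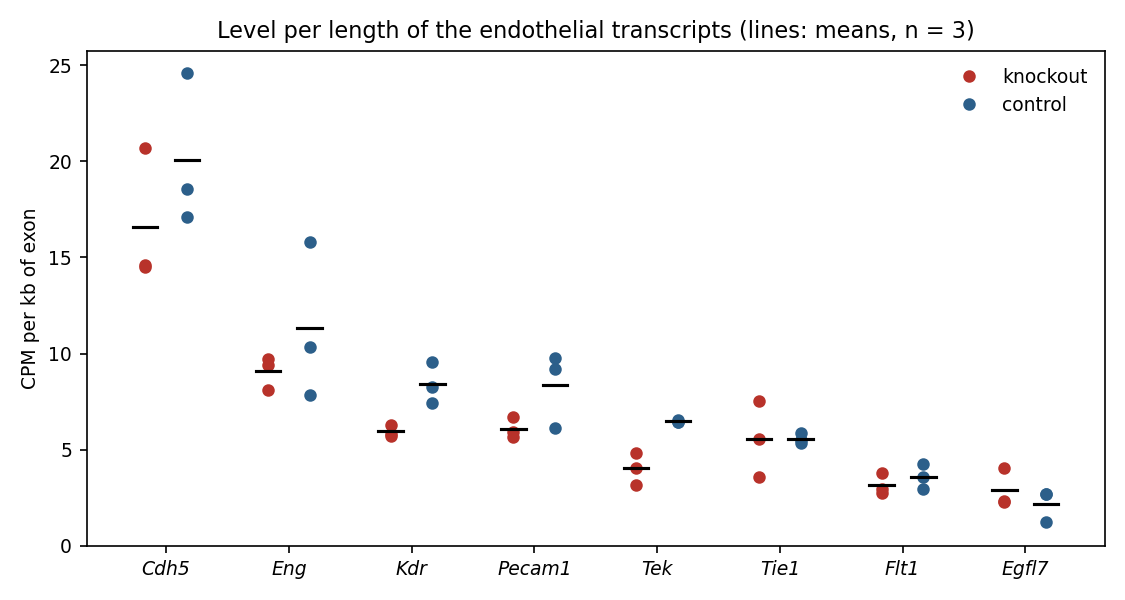
Level per kilobase of exon for each member, in CPM per kb, with knockout (red) left of control (blue), 1 point per library and lines at the means (n = 3 each). Cdh5 stands above the other genes in both groups, at 16.6 in knockouts and 20.1 in controls.

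Of 41 ligands, co-receptors and signalling partners of these receptors, 19 were tested, 2 were lower, 0 higher and 17 did not pass, with a median log2 fold change of -0.34 (DESeq2 called none of the 19). Over all tested genes 7.81% were lower by edgeR, so that 2 of 19 is near that share, and 3.00% were lower by DESeq2. Of the 19, 15 had a fitted change below 0, against 51.0% of all tested genes, whose median was -0.02. Tgfbr3, a co-receptor for TGF-beta related to Eng, fell 1.79-fold, or -0.84 ± 0.26 SE on the log2 scale (edgeR adjusted p = 0.0156), a call lost without knockout 1 (adjusted p = 0.149) and without control 2 (0.147). Jup (plakoglobin), a catenin of cell junctions that heart muscle cells also use, fell 1.61-fold (-0.69 ± 0.22 SE, edgeR adjusted p = 0.0170), a call lost without knockout 1 (adjusted p = 0.103), control 1 (0.0866) or control 2 (0.0759). The 3 most abundant partners did not pass: Ctnna1 at -0.09 ± 0.16, Ctnnb1 at -0.15 ± 0.16, both linking cadherins to the cell interior, and Ptprb, the phosphatase that restrains Tek, at -0.13 ± 0.21 (log2 fold change, SE). Vegfa, the ligand of Kdr and Flt1, had 51.8, 36.9 and 50.7 CPM in knockouts and 28.6, 33.6 and 31.8 CPM in controls. Every knockout lay above every control, where 33.3% of all tested genes had groups without overlap in either direction, 16.5% of all tested genes with the knockouts lower. Its log2 fold change of 0.55 ± 0.25 SE did not pass (edgeR adjusted p = 0.110), and the gene was named after its values were seen.

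Angpt1, the activating ligand of Tek, is named after its values were seen. It had 4, 0 and 3 counts in knockouts and 14, 17 and 7 in controls, or 5.45, 0 and 3.10 CPM and 30.8, 27.2 and 11.1 CPM. Every knockout lay below every control, which was so for 16.5% of the tested genes, of which Angpt1 was not one. Its ratio of summed counts was 0.124 (95% Poisson interval 0.0467 to 0.281, counting error only). The gene did not pass the low-count filter. In the fit without that filter its log2 fold change was -2.91 ± 0.54 SE (edgeR adjusted p = 5.03e-06). That fit called 122 of 14236 genes lower and 189 higher. Angpt2, the other main ligand of Tek, had 2 counts over the knockouts and 4 over the controls, too few for a comparison, and Gdf2, which encodes BMP9, had none in any library.

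**Figure D4:**
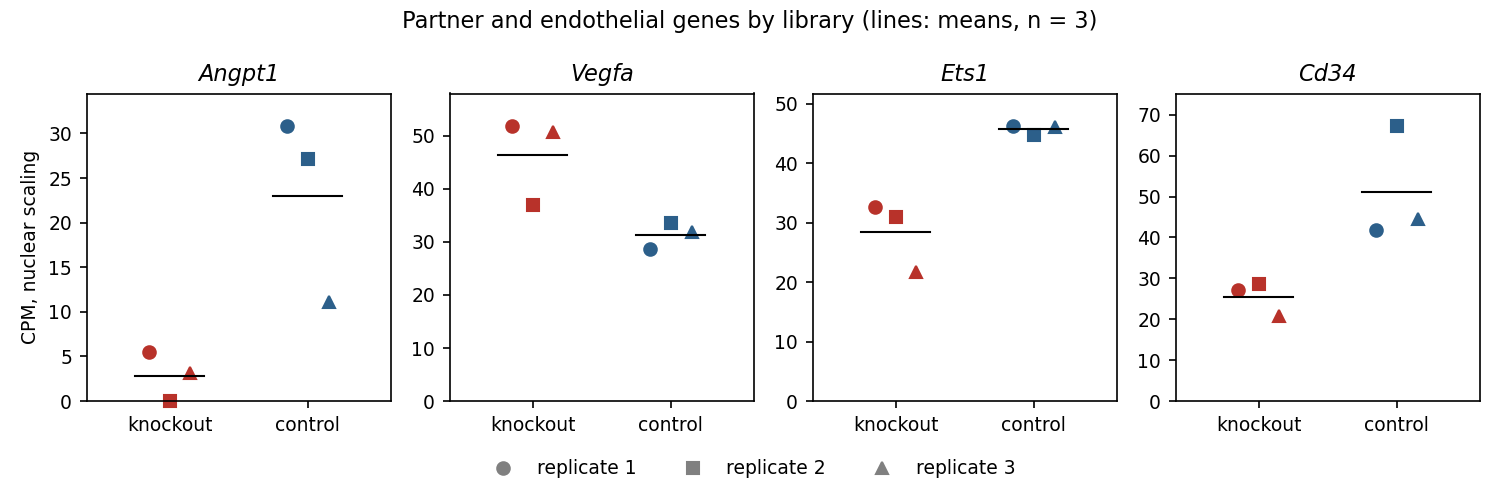
CPM in every library for Angpt1 and Vegfa, ligands of the receptors, and for Ets1 and Cd34, endothelial genes called lower, with knockout (red) left of control (blue), a marker shape per replicate and lines at the means (n = 3 each). Angpt1 sits at 0 to 5.45 CPM in knockouts and 11.1 to 30.8 CPM in controls, and Vegfa is higher in every knockout than in any control. Groups without overlap in either direction were found in 33.3% of all tested genes, and 16.5% had the knockouts lower.

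Among 40 other endothelial genes, 17 were tested, of which 4 were lower, 0 higher and 13 did not pass, with a median log2 fold change of -0.27 and 16 of the 17 below 0 (DESeq2 called none). Over all tested genes, 7.81% were called lower (3.00% by DESeq2) and 51.0% lay below 0, with a median of -0.02. Cd34, a sialomucin of endothelial and some stromal cells, had 27.2, 28.6 and 20.7 CPM in knockouts and 41.8, 67.1 and 44.6 CPM in controls, and fell 2.05-fold, or -1.04 ± 0.25 SE on the log2 scale (edgeR adjusted p = 0.00114). Its call was lost without control 2 (adjusted p = 0.0713). Ets1, an ETS transcription factor that other cells express too, had 32.7, 30.98 and 21.7 CPM in knockouts and 46.2, 44.8 and 46.2 CPM in controls, and fell 1.62-fold (-0.70 ± 0.25 SE, edgeR adjusted p = 0.0382). That call was lost without knockout 3 (adjusted p = 0.229) or without any 1 control (0.0892 to 0.115). Adgrf5, an adhesion receptor, fell 1.51-fold (edgeR adjusted p = 0.0227), and its call was lost without knockout 1, knockout 3 or control 1 (adjusted p up to 0.206, and a log2 fold change of -0.38 without knockout 1). Sparcl1, a secreted matrix protein, fell 1.46-fold (edgeR adjusted p = 0.0173), and its call was lost without knockout 1, knockout 2, control 1 or control 3 (adjusted p up to 0.172). The other abundant genes of the list, Cd36, a fatty acid transporter shared with heart muscle cells (-0.23 ± 0.19 SE), and Epas1, a hypoxia-inducible transcription factor (-0.24 ± 0.16 SE), did not pass. Without the low-count filter, 122 of 14236 tested genes were lower and 189 higher. In that fit Cd34 kept its call (edgeR adjusted p = 0.00641) and Ets1, Adgrf5, Sparcl1, Tgfbr3 and Jup lost theirs (0.0838 to 0.227). The ETS factors Erg (24 counts in knockouts and 25 in controls) and Fli1 (16 in knockouts and 24 in controls) did not pass the filter.

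The lists of other cell types are given beside these values, against the 7.81% of all tested genes called lower and 8.57% called higher by edgeR. For DESeq2 the shares of all tested genes were 3.00% lower and 4.01% higher. Of 9 tested smooth muscle and pericyte markers, 4 were lower and 1 was higher (median log2 fold change -0.44), while DESeq2 called 1 lower and 0 higher, and the list summed to between 597 and 789 CPM in knockouts and between 727 and 866 CPM in controls. Of 13 tested fibroblast markers, 4 were lower and 0 higher (median -0.21; 2 lower and 0 higher by DESeq2), with sums between 2356 and 2688 CPM in knockouts and between 2804 and 3153 CPM in controls. Of 15 cardiomyocyte markers, 6 were lower and 2 higher (median -0.09; 5 lower and 2 higher by DESeq2). Of 4 tested red cell and platelet markers none was called (median -0.03), and of the endocardial and lymphatic list 2 genes were tested and none was called. The part of these cell types in the values of the endothelial genes was not tested, and no difference between the lists was tested.

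**Figure D5:**
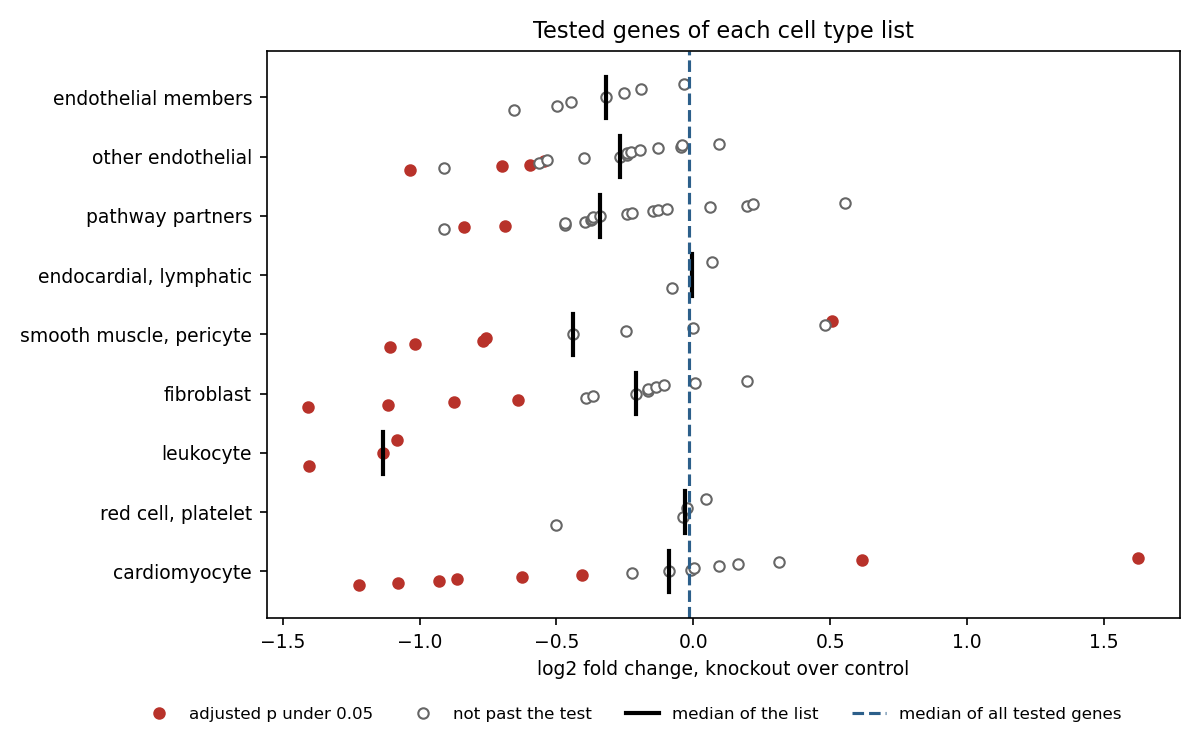
Log2 fold change, knockout over control, of every tested gene of each cell type list (filled red, adjusted p under 0.05; open, not past the test), with the list's median as a black bar and the median of all tested genes, -0.02, as a dashed line. All 7 endothelial members are open points below 0, and all 3 tested leukocyte markers are filled, with a median of -1.13.

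Genes whose pattern over the 6 libraries was most like that of the 8 members summed were sought among 1161 nuclear genes of at least median level, by Pearson's r of log2(CPM + 1). They were Cpe, carboxypeptidase E (r = 0.997), Gnai2, an inhibitory G protein subunit (0.981), Ece1, the endothelin-converting enzyme (0.974), Notch1, a receptor that is also in the partner list (0.972), and Top2b, a topoisomerase (0.959). Spearman's rho was 0.943 for each. Their fitted log2 fold changes were -0.52 for Cpe, -0.89 for Gnai2, -0.79 for Ece1, -0.47 for Notch1 and -0.68 for Top2b. Both groups enter r, so that a difference between the groups adds to it. All libraries share their scaling factors across genes, 37 of the 1161 genes had an r above 0.9, and these values describe likeness over 6 libraries only. Notch1 had 30.0, 40.5 and 31.0 CPM in knockouts and 50.6, 54.4 and 36.6 CPM in controls, and its log2 fold change of -0.47 ± 0.24 SE did not pass (edgeR adjusted p = 0.183).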

How the data were processed

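The submitters' processing notes name HISAT 0.1.6, featureCounts 1.3.5-p4, R 3.2.0, edgeR 3.11.2 and the build GRCm38. The annotation release and the strand setting were not given in the sources used here. Each deposited file that was used gives the raw count of every gene in 1 library. The authors' deposited table has columns, per the file headers, for log2 fold change, likelihood ratio score, p-value and FDR. Files normalised by the authors were not used.

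Symbols, gene positions and exon lengths came from GENCODE M21. A quasi-likelihood test in edgeR 4.0.16 (R 4.3.3, robust, no covariate) set knockout against control over the whole table. Library sizes were nuclear counts, the filter was filterByExpr (minimum count 10, minimum total 15), and TMM used the 2351 tested nuclear genes; 18 mtDNA values stayed in the fit. The p-values were adjusted by Benjamini-Hochberg, and the threshold for a call was 0.05. SEs are those implied by the F statistic. Ratios used a pseudocount of 0.5. DESeq2 1.42.0 was the other test. The fit was tested on simulated data. Alternatives were other scalings, no filter, no rRNA-collecting loci, a replicate block and leaving out each library.

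The members and lists were chosen with earlier results of these data known. All 8 members are named. Of the other endothelial and the partner lists, the genes called and the 3 with the highest mean CPM are named, and the rest (Vegfa, Angpt1, Angpt2, Gdf2, Erg, Fli1) were chosen after their values were seen, as were the leukocyte and platelet genes. Ccl21a, with more than 1 identifier, was left out. Intervals from counts cover counting error only. Replicates differed by more than sampling noise (chi-square per degree of freedom 1.30 to 6.26). Beyond the labels nothing shows that libraries come from separate animals, and p-values measure the spread between these libraries.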

Additional observations from a re-analysis of the deposited data

How the results depend on the processing

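The count of members called lower was 0 in the reported fit and 1 (Kdr) with total library sizes and TMM over all tested genes; no member was called higher under any alternative run. Of 91 alternative values of single members, 88 kept their direction and side of the threshold. The exceptions were that call of Kdr, and the log2 fold changes of Eng and Tie1. Leaving out 1 library, Eng ranged from -0.54 to 0.026 (above 0 without control 2) and Tie1 from -0.31 to 0.26 (above 0 without knockout 3). Over all genes, 185 were called lower and 203 higher, against 71 and 95 by DESeq2, 122 lower and 189 higher without the low-count filter, and 198 lower and 142 higher with no scaling beyond the nuclear library size; that last step takes the share of calls that were higher to 41.8%, against 52.3% as reported. The causes were not tested. Leaving out 1 library gave between 126 and 166 genes lower, between 152 and 196 higher, and no member in either direction. The difference in the Flt1 to Kdr log2 ratio then ranged from 0.08 to 0.52 and that of Tek to Tie1 from -1.03 to -0.38. The replicate block called 181 genes lower, 206 higher and no member. Libraries that share a replicate number had correlated deviations of -0.01, 0.005 and 0.07, and knockout 1 correlated best with control 2 (0.04), so the numbers are not taken as pairs. Between 14 and 177 counts per gene and group lie behind the members, which limits the precision of every fold change here.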
